A study of Mus musculus with 15 samples.

Results

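Centrosome and centriole genes were taken by symbol from both time points: every gene named Cep followed by a number alone (32 genes), and Pcnt, Plk4, Cenpj, Stil, Cntrob, Ninl, Pcm1, Odf2 and Ofd1 (9 genes), which gave 41 of 24421 gene symbols. RNA was sequenced from a single established mouse line of bile duct epithelium, on the C57BL/6 background, that carries CreERT2 (written ITR-CreERT2 in the labels, which do not spell out ITR) and floxed Klf5 alleles in every group. Ethanol, the solvent, was compared with 4-OH tamoxifen, which activates the recombinase, in 3 against 4 libraries at 12 h and 4 against 4 at 24 h, 15 libraries in 4 groups. No group received tamoxifen without the Cre or without floxed Klf5, so loss of Klf5, recombinase activity and the drug itself cannot be told apart. The series title speaks of 3D structures grown in vitro and the design text of structures in vivo, and which was sampled is not settled by the sources used here. The labels do not tell whether libraries of a group came from separate cultures. The p-values therefore speak to the variation among the sequenced libraries, which could be technical.

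The centrosome is built from a pair of centrioles, barrels of microtubules, inside a shell of pericentriolar material that nucleates further microtubules. Centrioles are copied in each cell cycle under the kinase Plk4, and in a resting epithelial cell the older centriole docks at the membrane and templates the primary cilium, which in bile duct cells senses flow and bile composition. The same proteins therefore serve the mitotic spindle, the cilium and the microtubule array, and several of them travel on granules around the centrosome called centriolar satellites.

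Mean normalised counts summed over genes to 13891352 at 12 h and 11844187 at 24 h. Klf5, the floxed gene, had log2 folds of -1.29 (SE 0.23, adjusted p 9.75e-06) at 12 h and -1.72 (SE 0.08, adjusted p 9.51e-107) at 24 h, as the authors' deposited tables give them. Of the biliary markers, Krt8, Krt18, Krt19 and Spp1 were abundant, whereas the means of Epcam were 15.7 normalised counts at 12 h and 9.56 at 24 h and those of Cftr 2.25 and 12.7 (the authors' deposited tables), and the secretin receptor gene Sctr was listed at 0. Of the fibroblast, endothelial and immune markers, Col1a2, Col3a1, Dcn, Cdh5, Stab2, Cd3e and Adgre1 were listed at 0 at both times. Others were not: by the authors' deposited tables the macrophage gene Cd68 had means of 76.4 at 12 h and 76.1 at 24 h, Col1a1 of 29.6 and 10.8, Ptprc of 2.28 and 0.613, and Pecam1 of 1.46 and 1.11. Also listed at 0 at both times was the hepatocyte gene Cyp2e1, while Apoa1, a plasma protein gene of hepatocytes, had means of 1291 and 447.8 in the authors' deposited tables. The tables give a gene's mean over all libraries of a time, its log2 fold of tamoxifen over ethanol and the standard error (SE) of that fold, and hold no value per library. Group levels below were therefore computed from the deposited mean and fold, and the agreement of replicates can be read only from the SE. In bulk RNA a change in the share of cells in one cell cycle stage and a change in RNA per cell cannot be told apart.

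At 24 h the centrosome genes that changed mostly rose. A gene is counted as called where the authors' deposited table gives its Wald test a Benjamini-Hochberg adjusted p below 0.05. By this measure 9 of the 41 genes were called (22%, beside 12.4% of all genes), with 8 that rose and 1 that fell, and 32 were not. The 8 rises are 19.5% of the genes, beside 5.9% of all 11648 genes with an adjusted p, and the single fall is 2.44% beside 6.52%. Among the 8152 genes whose mean lies in the same range as the members, 11.8% were called, 6.23% up and 5.57% down. At an unadjusted p below 0.05, 15 members were higher (36.6%, beside 8.91% of all genes with a p) and 2 lower (4.88%, beside 9.08%). The median log2 fold was 0.14 over the 41 genes and 0.01 over all 15819 genes with a p, and 31 of the 41 lay above 0 (75.6%, beside 51.6% of all genes). All 41 had an adjusted p at both times, so none was lost to a filter on low values. By role, 2 of 15 genes of centriole duplication and elongation rose, and 1 of 4 of the pericentriolar material. Also risen were 1 of 8 of the linker and subdistal appendages, and 2 of 8 of the distal appendages, transition zone and cilium. So were 1 of 4 of the satellites and the midbody gene Cep55, the only member of its role. Roles were assigned with earlier results of these data known, and 1 or 2 genes per role do not tell the roles apart.

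The authors' p-values rest on a normal distribution. In an alternative chosen after seeing the data, the same Wald scores were referred to a t distribution with the number of libraries less 2 as degrees of freedom. Then 107 of all genes were called at 24 h in place of 1447, and none of the 41 centrosome genes was among them, with adjusted p from 0.155 for Pcm1 to 0.363 for Plk4 over the 9 genes called above. At 12 h the same reference called 0 of 15704 genes, so not Klf5 either. Which reference suits these SEs was not tested.

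**Figure D1:**
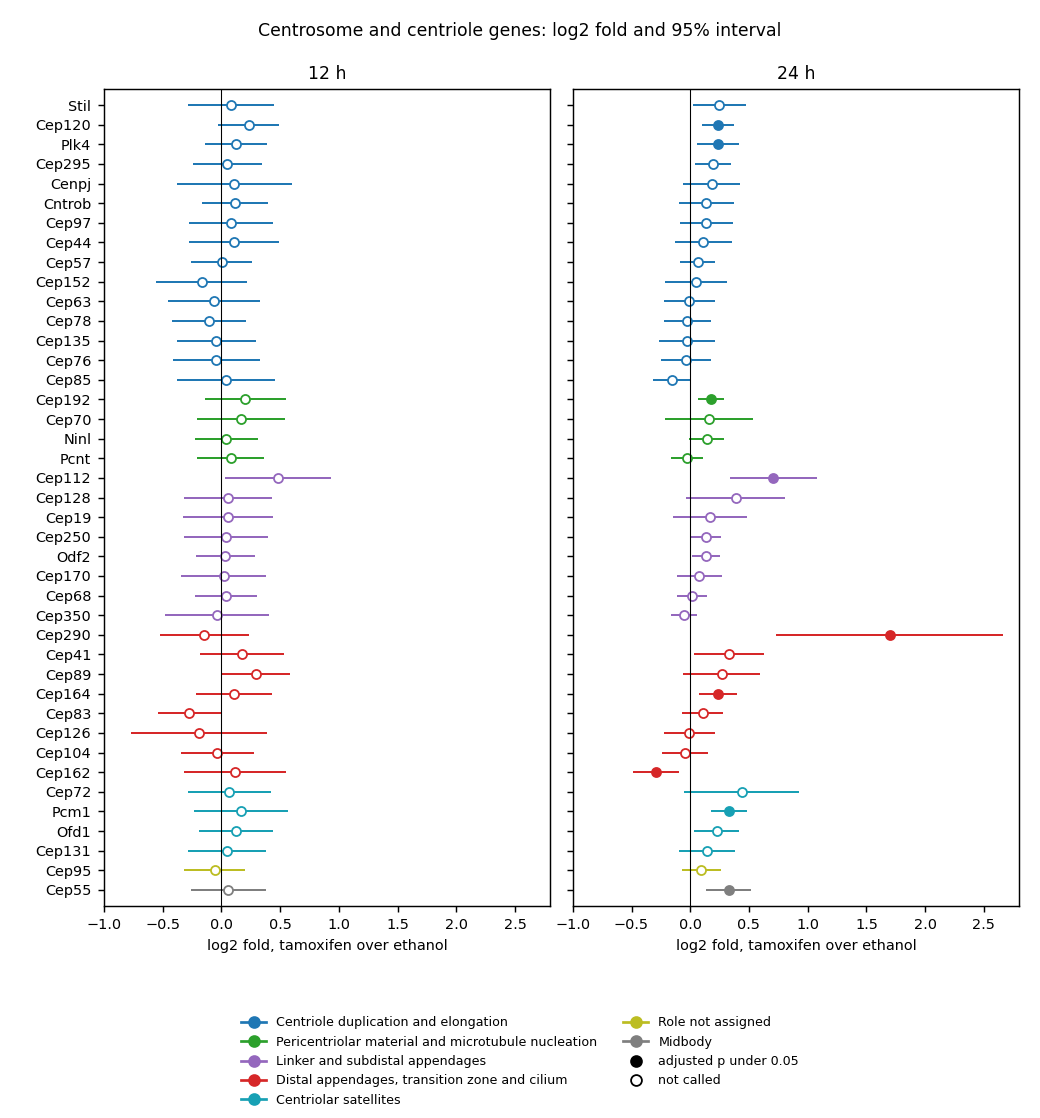
Log2 fold of tamoxifen over ethanol (horizontal axis) with its 95% interval for the 41 genes, at 12 h (left) and 24 h (right), coloured by role; filled points have an adjusted p under 0.05. No point is filled at 12 h, 9 are at 24 h, and the interval of Cep290 at 24 h, 0.74 to 2.66, is the widest of all.

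Cep290 had the largest fold and the least certain one. It encodes a long coiled-coil protein of the ciliary transition zone and of satellites. The gene sits on the forward strand of chromosome 10 (100487558 to 100574840, GRCm38) and has 11617 bases of exon. Of these bases 7.58% are shared with the opposite strand's exons, and the library kit does not mark strand. Counts of Cep290 may therefore include reads from the other strand. Its level at 24 h was 66.5 normalised counts in ethanol and 215.8 in tamoxifen, a 3.24-fold difference. Its log2 fold was 1.70 (SE 0.49, adjusted p 0.00752) in the authors' deposited table, the highest among the 9983 genes whose mean reached 50 normalised counts. That SE is 3.75 times the running median of genes of similar mean, and only 36 of the 9983 genes had a higher ratio. In a 2-group negative binomial model with no further term, this SE corresponds to a spread between libraries of one group of 46.9%, against 9.59% for genes of similar level. It was the 1 member of 41 with a ratio of at least 2 (2.44%, beside 0.994% of genes in the same range of means): the next ratio at 24 h was 1.67, for Cep170, and the median ratio over the 41 genes was 0.99. At 12 h the same gene was ordinary, with 436.2 normalised counts in ethanol and 394.5 in tamoxifen, a log2 fold of -0.15 (SE 0.19) in the authors' deposited table and an SE ratio of 1.15. Which libraries carried the rise was not tested, since it needs values per library.

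**Figure D2:**
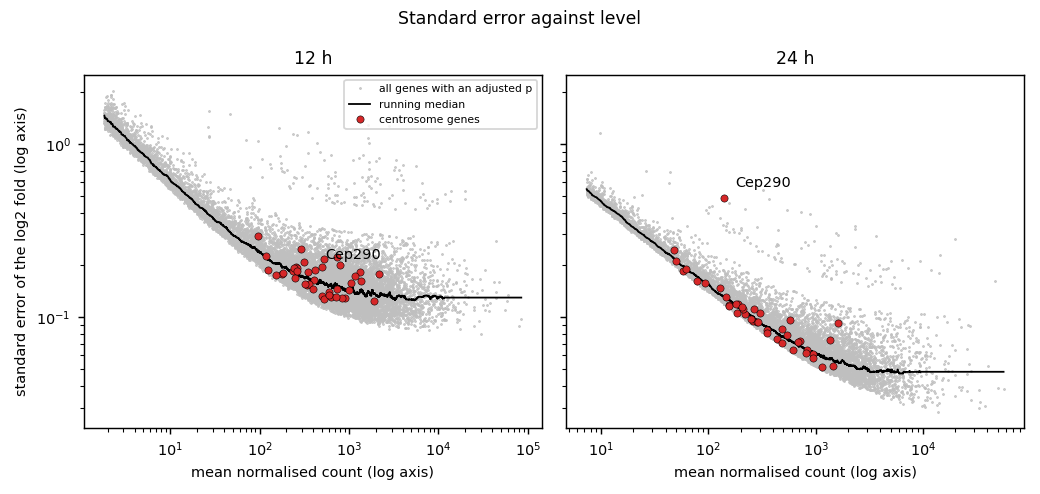
Standard error of the log2 fold (vertical, log axis) against mean normalised count (horizontal, log axis) at 12 h and 24 h, with all genes that have an adjusted p in grey, their running median as a line and the 41 centrosome genes in red. At 24 h Cep290 lies farthest above the line, at 3.75 times the median, and Cep170 next, at 1.67 times; at 12 h Cep290 lies near it, at 1.15 times.

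The other rises were smaller, at most 0.71 on the log2 scale, and their SEs were 0.87 to 1.28 times those of genes of similar level, highest for Pcm1. Pcm1, the scaffold of centriolar satellites (chromosome 8, 41239752 to 41332344, forward strand), stood at 1196 normalised counts in ethanol and 1501 in tamoxifen. Its log2 fold of 0.33 (SE 0.07) had the smallest adjusted p of the 41 in the authors' deposited table, 0.000241. Cep112 (chromosome 11, 108425192 to 108860615, forward strand) was among the genes of lowest level, with 44.0 normalised counts in ethanol and 71.9 in tamoxifen. In the authors' deposited table its log2 fold was 0.71 (SE 0.19, adjusted p 0.00243), the second largest of the set. Cep55, which recruits the abscission machinery to the midbody at the end of division (chromosome 19, 38055011 to 38074423, forward strand), went from 251.6 to 315.5 normalised counts, a log2 fold of 0.33 (SE 0.09, adjusted p 0.00673) in the authors' deposited table.

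Among genes that build the centriole, Cep120, which promotes elongation together with Cenpj (chromosome 18, reverse strand), rose by 0.24 on the log2 scale (SE 0.06, adjusted p 0.00377) in the authors' deposited table, from 756.9 to 893.3 normalised counts. Plk4, the kinase that starts duplication (chromosome 3, 40800019 to 40816883, forward strand), rose from 451.1 to 531.6 normalised counts, with a log2 fold of 0.24 (SE 0.09). Its adjusted p in the authors' deposited table was 0.0462, just inside the threshold. Adjusted over all genes with a p its value was 0.0626, and over the alternatives it ranged from 0.0417 to 0.363, so its call depends on the setting. Cep295, needed to turn a new centriole into a centrosome, was the nearest gene outside the threshold in the authors' deposited table, at 0.19 (SE 0.07, adjusted p 0.0569). Its exons share 19.1% of their bases with a gene on the opposite strand, and the library kit does not mark strand, so its counts may include reads of the other gene. Stil, which Plk4 phosphorylates in cartwheel assembly, had a log2 fold of 0.25 (SE 0.11, adjusted p 0.14) and Cenpj, which adds tubulin to the growing centriole, one of 0.18 (SE 0.12, adjusted p 0.362) in the authors' deposited table. The remaining members of this role ran from -0.16 for Cep85, a Stil partner, to 0.14 for Cntrob, a daughter centriole protein, in the authors' deposited table, and none was called. Cep152 and Cep63, which together recruit Plk4, lay near 0 by the authors' deposited table, at 0.05 (SE 0.13) and -0.01 (SE 0.11).

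In the pericentriolar material, Cep192, a scaffold that recruits Plk4 and Aurora A (chromosome 18, forward strand), rose by 0.18 (SE 0.05, adjusted p 0.00829) in the authors' deposited table, from 1079 to 1220 normalised counts. Pericentrin (Pcnt), the other large scaffold of this shell, had 616.1 normalised counts in ethanol and 604.8 in tamoxifen. Its log2 fold was -0.03 (SE 0.06) in the authors' deposited table, an interval from -0.15 to 0.10. Ninl, which anchors microtubules, had a fold of 0.14 (SE 0.07, adjusted p 0.20) in the authors' deposited table.

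Genes of the mother centriole and cilium moved in both directions. Cep164, the distal appendage protein that brings the kinase Ttbk2 to the mother centriole (chromosome 9, 45766946 to 45828691, reverse strand), rose by 0.24 (SE 0.08, adjusted p 0.0248) in the authors' deposited table, from 497.6 to 587.1 normalised counts. With the trend of fold against exonic length subtracted, its fold was 0.21 and its adjusted p 0.0599, and over the alternatives it ranged from 0.0222 to 0.318. Cep162, which helps the transition zone form at the distal end of the centriole (chromosome 9, 87189577 to 87255536, reverse strand), was the only member that fell. Its level was 640.6 normalised counts in ethanol and 523.1 in tamoxifen, and its log2 fold was -0.29 (SE 0.10, adjusted p 0.0229) in the authors' deposited table. The other appendage proteins Cep83 and Cep89 were not called by the authors' deposited table, at 0.11 (SE 0.08) and 0.27 (SE 0.16). Cep41, linked to tubulin glutamylation in cilia, stood at 0.33 (SE 0.15, adjusted p 0.133), as high as the called Pcm1, but at a mean of 127.6 normalised counts against 1349, by the authors' deposited table. Of the satellite genes beside Pcm1, Ofd1 had 0.22 (SE 0.09, adjusted p 0.0978), Cep72 0.44 (SE 0.24) and Cep131 0.15 (SE 0.12) in the authors' deposited table, all above 0 and none called.

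Of the linker and subdistal appendage genes none was called apart from Cep112, which was placed with them although its role is not well established. Cep250, which ties the centrioles together, had 0.14 (SE 0.06) and Odf2, a base of the appendages, 0.13 (SE 0.06) in the authors' deposited table, with adjusted p of 0.129 and 0.113. Exons of Cep250 share 11.1% of their bases with a gene on the opposite strand. Cep68, Cep170 and Cep350 had folds between -0.05 and 0.08 in the authors' deposited table. Cep128 and Cep19 were higher there, at 0.39 (SE 0.21) and 0.17 (SE 0.16), and were not called. Over all 32 genes not called at 24 h, log2 folds in the authors' deposited table lay between -0.16 and 0.44, 23 of them above 0, and 8 had an unadjusted p under 0.05, 7 higher and 1 lower. Their 95% intervals reached from -0.31 to 0.91, widest for the least abundant members, so a missing call does not show that a gene was unchanged.

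**Figure D3:**
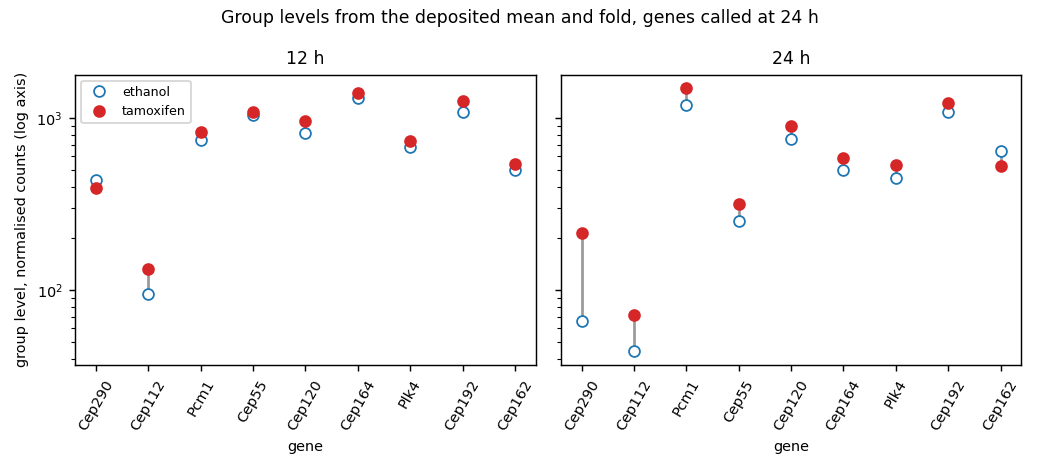
Group levels in normalised counts (vertical, log axis), computed from the deposited mean and fold, for the 9 genes called at 24 h, with ethanol as open and tamoxifen as filled points at each time. At 24 h the gap is widest for Cep290, 66.5 against 215.8, and only Cep162 has the ethanol point on top; at 12 h Cep290 has the ethanol point on top.

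At 12 h no centrosome gene was called by the Wald test of the authors' deposited table: 0 of 41 passed, where 0.943% of all 13044 genes with an adjusted p did (0.215% up and 0.728% down). Among genes in the members' range of means the share was 0.93% (0.184% up, 0.747% down), and the smallest adjusted p of a member was 0.729. At an unadjusted p under 0.05 there were 3 (7.32%, beside 4.9% of all genes with a p), 2 higher (4.88%, beside 1.97%) and 1 lower (2.44%, beside 2.92%). Cep112 at 0.48 (SE 0.23) and Cep89 at 0.29 (SE 0.14) were higher and Cep83 at -0.28 (SE 0.13) lower in the authors' deposited table. The median fold was 0.06 and 30 of 41 genes lay above 0 (73.2%, beside 49% of all genes). SEs were larger at 12 h for 36 of the 41 genes, with a median of 0.18 against 0.10 at 24 h in the authors' deposited tables. Over all genes with an adjusted p the median SE likewise was 0.18 at 12 h and 0.09 at 24 h. No member had an SE ratio of at least 2 at 12 h (1.37% of genes in the same range of means did). Of the 8 genes that rose at 24 h, 7 had a fold above 0 at 12 h, among them Cep120 at 0.23 (SE 0.13) and Cep192 at 0.20 (SE 0.17) in the authors' deposited table; Cep290 was the one below 0. Over all 41 genes 34 had the same sign at both times (82.9%, beside 65.3% of the 14981 genes with a p at both).

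The folds of the times share no library, so their difference was tested for each gene. None of the 41 genes passed an adjusted p under 0.05 in this Wald test of the difference, as 0.0134% of all genes did, and 2 had an unadjusted p under 0.05 (4.88%, beside 1.64%). They were Cep290, with a difference of 1.84 (SE 0.52, unadjusted p 0.000436, adjusted p 0.816), and Cep83, with a difference of 0.38 (SE 0.16, unadjusted p 0.0154). For Cep120, Cep192 and Cep350 the difference was 0.01 (SE 0.14), -0.03 (SE 0.18) and -0.01 (SE 0.23). A gene called at 24 h and not at 12 h is thus not shown to respond differently at the times.

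Per kilobase of exon, levels differed widely between members, and the tables of the times were normalised separately. At 24 h Pcm1 was highest with 15.3 CPM per kilobase (CPM being a mean normalised count scaled to the sum over all genes of its time), followed by Cep57 with 13.7, Cep68 with 11.6, Cep120 with 10.2 and Cep55 with 8.24. Cep112, Cep72 and Cep128 were lowest, with 0.792, 0.495 and 0.297. At 12 h Cep55 led with 26.4, ahead of Cep250 with 15.0, Cep57 with 14.5, Odf2 with 14.0 and Cep19 with 10.7, on the same scale. In CPM, 29 of the 41 genes were higher at 12 h and 12 at 24 h. The share of all genes higher at 12 h was not computed, so this count is not shown to be particular to the members. Cep55 stood at 76.8 CPM at 12 h and 23.9 at 24 h, and Cep290 at 29.7 and 11.9. Pcm1 went the other way, with 57.4 and 113.9 CPM. No test was made across the times, since the times were normalised apart.

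Further centrosome genes outside the naming rule gave 0 to 2 calls a list, where 5.9% of all genes rose and 6.52% fell, and at an unadjusted p below 0.05 8.91% were higher and 9.08% lower. None of 18 genes of the gamma-tubulin ring and augmin complexes, which nucleate microtubules, was called at 24 h by the Wald test of the authors' deposited table, and 2 had an unadjusted p under 0.05, Haus3 at 0.27 (SE 0.11) and Haus6 at 0.22 (SE 0.10). Of 24 further centriole and pericentriolar genes, 22 had an adjusted p and 1 rose, Nin (ninein, a microtubule anchor), at 0.23 (SE 0.07, adjusted p 0.0124) in the authors' deposited table. Of 15 further appendage and satellite genes 2 rose in the authors' deposited table, Cspp1, a spindle and cilium protein, at 0.23 (SE 0.07), and Ttbk2, the partner of Cep164, at 0.19 (SE 0.06). Of 8 mitotic kinases that act at the centrosome 1 rose in the authors' deposited table, Plk1 at 0.33 (SE 0.10). At an unadjusted p below 0.05 the further centriole and pericentriolar list had 3 genes higher, the appendage and satellite list 4, and the kinases 4 higher and 1 lower. The medians of these lists were 0.06, 0.16, 0.13 and 0.15, beside 0.14 for the members, and none of their genes fell. Genes named Cep with a further suffix were not members: by the authors' deposited table Cep170b, Cep85l and Cep57l1 had folds of -0.11 (SE 0.04), -0.12 (SE 0.13) and 0.10 (SE 0.16), with none called.

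Further genes of G2 and mitosis, none of them a member or in the lists above, also mostly rose at 24 h. Of 20 such genes 13 rose, none fell and 7 were not called at 24 h in the authors' deposited table, with a median fold of 0.32. Of all genes with an adjusted p, 5.9% rose and 6.52% fell. The median fold over all genes with a p was 0.01. Cenpf (1.05, SE 0.20), Mki67 (0.61, SE 0.13) and Tpx2 (0.40, SE 0.08) were among the rises in the authors' deposited table. Cenpe, a kinetochore motor, stood at 0.99 (SE 0.26) with an SE 3.18 times that of genes of similar level. Of 20 genes of G1/S and DNA replication none was called at 24 h by the same test, 2 had an unadjusted p under 0.05, both lower, and the median was -0.06. Of all genes with a p, 8.91% were higher and 9.08% lower at that unadjusted threshold. Both lists were chosen with earlier results of these data known. The part of cell cycle stage in the centrosome rises was not tested.

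**Figure D4:**
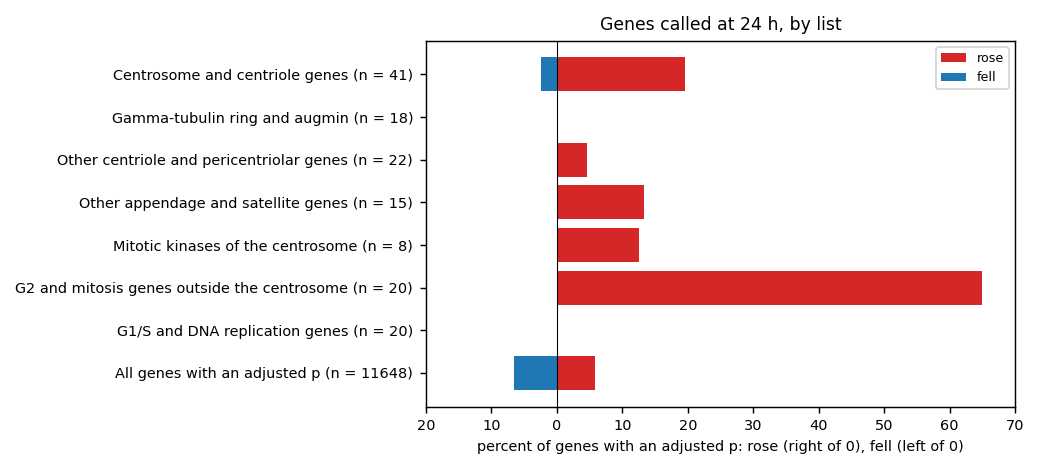
Percent of genes with an adjusted p that rose (red, right of 0) or fell (blue, left of 0) at 24 h, for the 41 centrosome genes, the further lists and all 11648 genes. In the name of the G2 and mitosis list, outside the centrosome means outside the members and the other lists. The centrosome genes, at 19.5% risen and 2.44% fallen, lie between all genes and the G2 and mitosis list, of which 13 of 20 rose; 0 were called in the gamma-tubulin and G1/S lists.

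Transcript length was examined because most of these genes are long. Exonic length ran from 1751 bases (Cep19) to 18049 (Cep170), with a median of 6175 against 4550 for all genes with an adjusted p at 24 h. Over all genes the fold rose slightly with length: in the longest 20% of genes, at or above 7779 bases, the median log2 fold was 0.03 and 9.88% of genes rose, and in the shortest 20% the median was -0.04 and 3.29% rose. The longest group held 14 of the members, of which 3 rose and 1 fell, where 6.45% of all its genes fell. The group from 5370 to 7777 bases held 12 members, of which 4 rose and 0 fell. Of all genes in that group 6.5% rose and 6.37% fell. Across the 41 genes Spearman's rho between length and fold was 0.04 at 24 h, and across 11233 genes it was 0.12; genes of one comparison share its libraries, so these are descriptions. With the trend subtracted, 7 of the 9 calls remained, all but those on Plk4 and Cep164. The GC content of the longest transcript had a rho of -0.09 with the fold across the 41 genes, where Cep290 had the second lowest content, 38.7%, after Cep44.

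**Figure D5:**
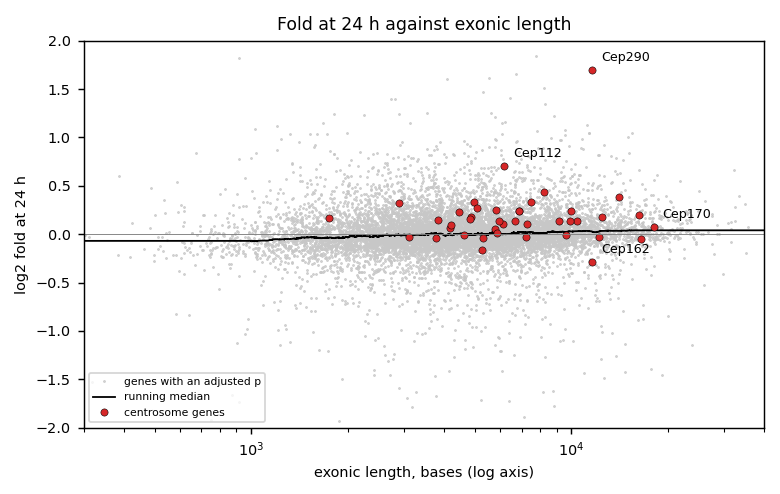
Log2 fold at 24 h (vertical; genes beyond 2 in either direction are not drawn) against exonic length in bases (horizontal, log axis), with genes that have an adjusted p in grey, their running median as a line and the centrosome genes in red. The line climbs slightly with length, and the members scatter around and above it, with Cep290 at 1.70 and Cep162 at -0.29 of nearly equal length, 11617 and 11607 bases.

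Promoter sequence was sought for all 41 members, called or not, since Klf5 belongs to a family that binds GC-rich and CACCC-type boxes. RefSeq windows on GRCm38.p6, 250 bases before to 50 after a gene's start, were found for 34 of the 41 members. Where a gene had more than 1 window, the one nearest its GENCODE start was kept, and positions refer to that window. The starts used for Ninl and Cenpj lay 29984 and 3579 bases from the GENCODE start. The 3 largest called rises with a window and the single fall are shown as the 250 bases before the start, 5′ to 3′ on the gene's strand, with matches on either strand in capitals. The letters searched were GGGCGG for the GC box. For the other type of box they were CCACCC. Coordinates are chr10:100487332-100487581 for Cep290, chr11:108425016-108425265 for Cep112 and chr19:38054734-38054983 for Cep55, all on the forward strand, and chr9:87255533-87255782 on the reverse strand for Cep162.
Cep290: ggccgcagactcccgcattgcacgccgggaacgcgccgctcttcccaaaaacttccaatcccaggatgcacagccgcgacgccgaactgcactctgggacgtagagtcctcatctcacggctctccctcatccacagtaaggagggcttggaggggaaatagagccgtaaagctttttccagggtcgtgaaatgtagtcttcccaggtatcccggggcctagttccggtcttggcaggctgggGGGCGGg
Cep112: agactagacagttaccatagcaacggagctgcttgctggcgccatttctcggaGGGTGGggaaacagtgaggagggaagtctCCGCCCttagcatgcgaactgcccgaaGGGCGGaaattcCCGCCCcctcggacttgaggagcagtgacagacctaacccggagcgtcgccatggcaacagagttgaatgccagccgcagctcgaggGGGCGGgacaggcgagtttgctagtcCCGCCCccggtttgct
Cep55: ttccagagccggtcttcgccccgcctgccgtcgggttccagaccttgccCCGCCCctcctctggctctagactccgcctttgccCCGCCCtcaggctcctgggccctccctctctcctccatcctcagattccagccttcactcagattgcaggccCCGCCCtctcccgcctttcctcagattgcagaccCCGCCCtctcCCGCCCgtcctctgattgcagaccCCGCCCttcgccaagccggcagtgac
Cep162: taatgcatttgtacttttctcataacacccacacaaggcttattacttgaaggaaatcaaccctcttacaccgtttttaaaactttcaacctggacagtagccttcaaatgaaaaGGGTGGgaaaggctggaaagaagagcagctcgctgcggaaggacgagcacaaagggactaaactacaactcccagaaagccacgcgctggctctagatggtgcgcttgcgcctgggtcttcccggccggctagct

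The stretches of Cep55 and Cep112 hold 6 and 5 GC boxes, whereas that of Cep290 holds 1, at its last bases, and that of Cep162 none. Each of Cep112 and Cep162 holds 1 CACCC box. Over the whole windows, 25 of the 34 members hold a GC box (73.5%), beside 67.4% of 8890 genes with a window and an adjusted p at 24 h, and 10 hold a CACCC box (29.4%), beside 36.2%. Letters known from promoters of G2 and mitosis genes were searched the same way, and TTTGAA, the core of the cell cycle homology region, occurs in 8 of the 34 (23.5%), beside 11.4% of all windows and 12.1% of those of the 504 genes that rose at 24 h. Of the 8 members that rose at 24 h, 5 had a window, and Pcm1, Cep120 and Cep192 had none. Among those 5, Cep55, Cep112 and Cep164 are the 3 that hold TTTGAA. The match begins 25 and 17 bases after the start in Cep55 and Cep112, and 128 bases before the start in Cep164. Cep162, the gene that fell, also holds it. CCAAT occurs in 17 of 34 members (50%), beside 39.1% of all windows. Searches were of plain letters on both strands with overlaps allowed, and a match is a description of the sequence only.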

How the data were processed

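The submitters' processing notes list HISAT2, DESeq2 and the build mm10 without versions or roles. How reads were counted, on which annotation and with which design formula is not given in the sources used here. Per the labels' protocols the kit was TruSeq RNA v2, which does not mark strand. Each of the 2 deposited tables gives, per the file headers, a mean normalised count (a signal over all libraries of a time), the log2 fold and its SE, the Wald score (statistic), and the p-value with its adjusted p-value. No value per library was used: calls are those of the authors' comparison columns.

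Computed here were group levels, 95% intervals (1.96 SE on each side), SE ratios over a running median by mean, the Wald difference between times with Benjamini-Hochberg adjustment, and the spread that an SE implies. The difference test was checked on simulated data. The direction of folds was checked at 12 h from genes with a single read in a single library, which share 1 mean per library: 7 such means were found, 4 with folds above 0 and 3 below, as many as tamoxifen and ethanol libraries. At 24 h, with 4 and 4, the split does not tell, and the direction was taken as at 12 h. The fold of the floxed Klf5 had the same sign at both times, -1.29 and -1.72, the sign that its loss under tamoxifen gives. Exonic lengths and positions come from GENCODE vM21 on GRCm38, the assembly mm10 names; 41 of 41 members matched. Exon sharing was noted above 10%, and below that for Cep290 alone. Scripts ran in Python 3.11.15 with scipy 1.17.1, pandas 2.3.3, matplotlib 3.10.9 and numpy 2.4.6. Members, roles and lists were chosen with earlier results of these data known. Values were named for every called member, for SE ratios of at least 2, for the 5 highest levels per kilobase, for the 5 largest folds per time at a mean of at least 50, and for Plk4, Stil, Cenpj, Pcnt and Pcm1; other values were chosen after being seen. Alternatives changed the threshold, the adjustment family, the SE, centring, the length trend and the reference distribution. Intervals cover only what the SEs hold.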

Additional observations from a re-analysis of the deposited data

How the results depend on the processing

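With an adjusted p under 0.01 at 24 h, 6 members were called and 0 fell, in place of 9 and 1, and Plk4, Cep164 and Cep162 no longer passed; of all 11648 genes 854 passed in place of 1447. With the t distribution, chosen after seeing the data, the counts of members called, risen and fallen at 24 h were each 0; of all genes 107 were called at 24 h and 0 of 15704 at 12 h, so the members' 0 at 12 h says nothing about them there. Under the other alternatives 7 to 11 members were called at 24 h, 0 at 12 h and 0 for the difference between times. Calls over all genes shifted too at 24 h, from 1177 of 15819 with small SEs raised, through 1328 of 11233 with the length trend subtracted, to 1923 of 11648 at an adjusted p under 0.1. The calls on Plk4 (adjusted p 0.0626, 0.0675, 0.0621 and 0.0804) ended when adjusting over all genes, raising small SEs to the typical value, centring or subtracting the length trend; that on Cep164 ended in the last, with a fold of 0.21 against 0.24. The cause was not tested. Leaving out Cep290 left 8 calls. No value was reversed in direction. The members' median fold ran from 0.05 to 0.06 at 12 h and from 0.13 to 0.14 at 24 h. Most alternatives leave the folds as they are, and centring and the length trend shift them little. This stability is therefore no test of the folds. Leaving out single replicates was not run, since the tables hold no value per library. No paired analysis was possible because the comparison columns carry no replicate number. Beside Cep290, SEs at 24 h reached 0.24, in Cep72, the member of lowest mean. This SE was 1.12 times the running median of genes of similar mean. Under the negative binomial model used for Cep290, it corresponds to a spread between libraries within a group of 18.9%, against 15.6% for genes of similar level. That split of counting error from spread rests on the model and cannot be checked without values per library.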
